A study of Canis lupus familiaris with 14 samples.

Results

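The data described here were lymph node profiles from 4 dogs with lymphoma, known as the K-N class, and from the normal lymph nodes of 3 Beagles of a research colony. The class was NE45 (a Golden Retriever, labelled T-cell lymphoma), FS25 (a Boxer, labelled T-cell lymphoma), RB07 and RB10 (both Boxers, both labelled B-cell lymphoma). These 4 aspirates were chosen by their identifiers from the 14 arrays of the series, and the comparison group was the 4 arrays labelled normal lymph node, 63, 2970, 3024l and 3024r, where 3024l and 3024r were nodes of 1 dog and were averaged. The lymphomas were spontaneous, were sampled by fine needle aspirate at 3 clinics and had not yet received the first dose of a PI3K inhibitor. The normals are called node tissue by the labels and aspirates by the methods, so whether the way of sampling differed between the groups was not tested. RB07 and FS25 had relapsed after chemotherapy and NE45 and RB10 had not been treated before. The study diagnosed B-cell and T-cell disease by staining for CD79a and CD3, so that the class held both diagnoses. All lymphomas were from pet dogs and all normals from Beagles, so breed, housing, clinic and disease cannot be told apart. The batch in which each array was run is not given in the sources used here.

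The letters and the class come from the study, which drew the class from expression profiles of the same RNA, these arrays included. A test of the class against normal nodes therefore measures how far these 4 profiles lay from these 3 dogs relative to the spread between dogs, and is not independent evidence that such a class exists. The E-J class of 6 other lymphomas, 5 with the B-cell label and 1 (FS22) with the T-cell label, is given beside some values as a description only, since both classes were set against the same normal dogs. In aspirates a lower signal can come from fewer cells of a type or from less RNA per cell, and these cannot be told apart.

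A lymph node holds T cells, B cells in follicles, plasma cells, macrophages that line its sinuses, dendritic cells, vessels and a stromal network that guides lymphocytes with chemokines. T cells carry a receptor whose signal passes through the CD3 chains, and helper and cytotoxic T cells are told apart by the coreceptors CD4 and CD8. B cells carry a receptor whose signal passes through CD79A and CD79B. Lymphoma is a tumor of lymphocytes, and in dogs its B-cell and T-cell forms are separated mainly by these receptor chains.

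Values are MAS5 signals of the GeneChip Canine Genome V2.0 Array on the log2 scale, where a signal of 100, taken as the limit of detection, is 6.64. A gene's value is the mean over its probe sets, and a difference of 1 is a 2-fold change. Signals under the limit have no reliable order. Where all of a group's values of a gene were under it, the fold is given as at least N, the lowest over those of its probe sets that reached the limit in the brighter group, with dimmer signals raised to the limit. Other differences that rest in part on signals under the limit are of uncertain size. Of 15115 genes, 8216 reached a signal of 100 in at least 3 of the 7 dogs and were tested with limma, and a gene is said to have risen or fallen where its Benjamini-Hochberg adjusted p was under 0.05. The arrays had median signals of 85.5 to 130 in the class and 90.7 to 126 in the normals. The ratio of the 3′ to the 5′ GAPDH probe set, a measure of 3′ bias, was 5.53 to 8.94 in the class, 3.30 to 5.31 in 3 normal arrays and 23.2 in 3024l. Because 3024l stood apart, values are also given with 3024r alone for its dog where this moved a count by more than 1.5 times.

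The T-like name of the class was first checked on lineage markers. CD3D, a CD3 chain of the T-cell receptor, had log2 signals of 13.69 in NE45, 13.07 in RB07, 13.80 in FS25 and 14.20 in RB10, against 12.32 in 63, 11.77 in 2970, 11.71 in 3024l and 11.53 in 3024r. All 4 lymphomas were above all normal arrays, and CD3D rose by 1.79 (standard error 0.35, adjusted p = 0.0322), a 3.46-fold difference. CD3G, another CD3 chain, had values of 14.79 in NE45, 14.49 in RB07, 14.45 in FS25 and 14.75 in RB10 and of 12.67 to 13.88 in the normals, which differed by 1.36 (standard error 0.33, adjusted p = 0.0575). The groups did not overlap for CD3G, which did not pass the test. CD3E had values of 12.11 to 12.56 in the class and 12.38 in 63, 11.51 in 2970, 10.15 in 3024l and 10.27 in 3024r, so that normal node 63 lay within the range of the lymphomas and the difference was 1.06 (adjusted p = 0.259). Of the other T-cell markers, CD2 was at 12.39 to 13.01 in the class and 11.27 to 12.01 in the normals, CD5 at 8.32 to 9.70 and 7.67 to 9.12, and LCK, the kinase that starts receptor signalling, at 9.21 to 10.19 and 6.74 to 9.92. None of these passed the test.

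The B-cell receptor chain CD79A, the marker behind the clinical B-cell diagnosis, gave log2 signals of 7.87 in NE45, 8.06 in RB07, 2.55 in FS25 and 8.11 in RB10, against 9.75 to 10.55 in the normal arrays. RB07 and RB10, the dogs diagnosed with B-cell lymphoma, were thus below every normal node and close to NE45, while FS25 was far lower. The difference was -3.43 (standard error 1.31, adjusted p = 0.178) and did not pass the test. CD79B, its partner chain, was at 6.20 in NE45, 2.20 in RB07, 2.91 in FS25 and 7.39 in RB10, all below the normal range of 8.76 to 9.66, with a difference of -4.57 (standard error 1.20, adjusted p = 0.0736). MS4A1, which encodes the B-cell surface antigen CD20, was uneven within the class. Its values were 10.89 in NE45, 2.89 in RB07, 6.48 in FS25 and 10.40 in RB10, and the normals ranged from 9.88 to 11.17. NE45, labelled T-cell, and RB10, labelled B-cell, were thus at the level of normal nodes. RB07, labelled B-cell, and FS25, labelled T-cell, were under the limit of detection. PAX5, the transcription factor of B-cell identity, did not reach the limit of detection in enough dogs to be tested.

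**Figure D1:**
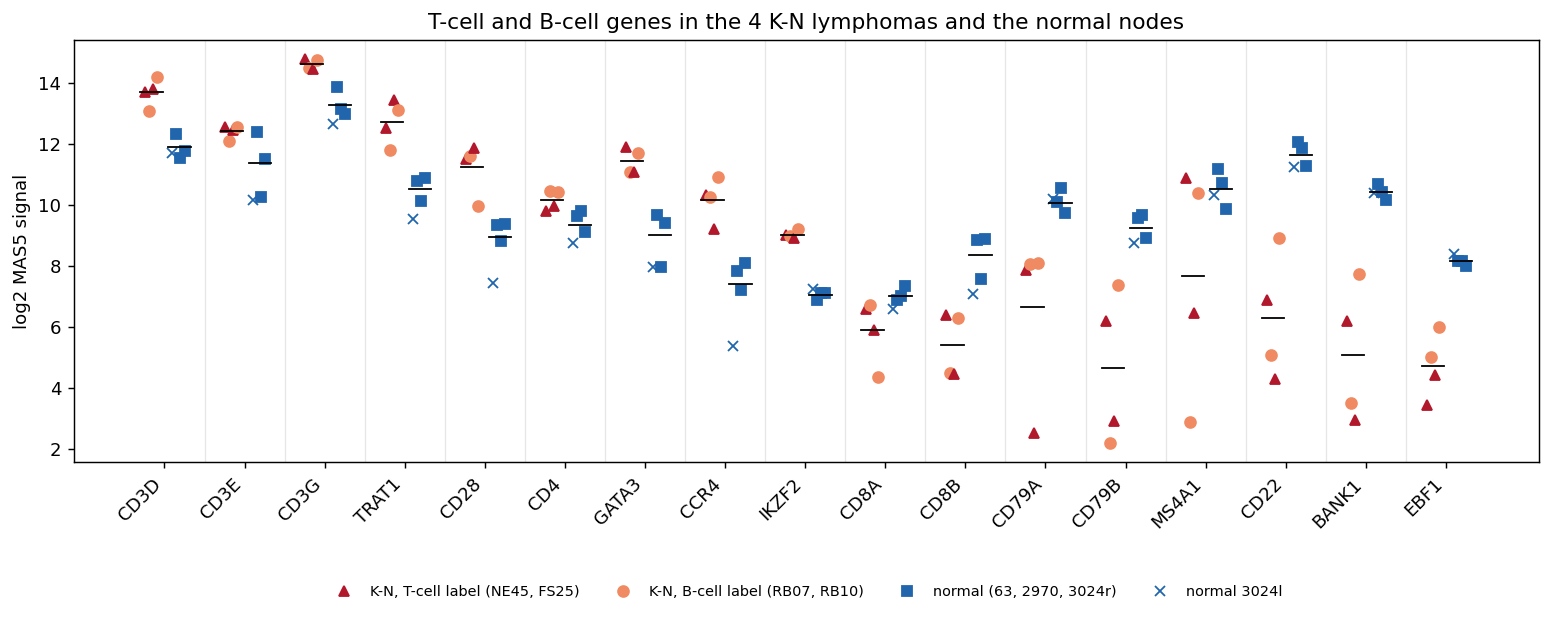
Log2 MAS5 signal of 17 T-cell and B-cell genes in each array of the K-N class (triangles for the T-cell label, circles for the B-cell label) and of the normal nodes (squares, with a cross for 3024l), and black bars for the group means with dog 3024 averaged. CD3D, TRAT1, GATA3, CCR4 and IKZF2 lie higher in all 4 lymphomas, CD22, BANK1 and EBF1 lie lower, and MS4A1 spreads from 2.89 to 10.89 within the class.

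Across the array, 345 of 8216 genes (4.2%) differed between the class and normal nodes, of which 94 (1.14%) rose and 251 (3.06%) fell. The values of the 4 lymphomas and the 3 dogs did not overlap for 1860 genes (22.6%), higher in the class for 789 (9.6%) and lower for 1071 (13%). The median difference of all genes was -0.05. With 3024r alone for its dog, 139 genes rose and 434 fell. The count was sensitive to single dogs, with 651 calls without RB07 and 13, 31 and 15 calls without normal dog 3024, 63 and 2970, each of which left 2 normal dogs, and the methods' t-test (Welch) gave 0 calls after adjustment and 1497 genes at an unadjusted p under 0.05. Of 67 genes called and named by the rules used here, 9 were still called in each of the 7 fits that left out 1 dog with the genes tested held fixed, namely GTSF1, PLAG1, LOC491803, TMEM211, RIMBP2, SPC25, CD209, CXCL12 and LYVE1. All 67 kept the sign of their difference, which a gene without overlap between the groups cannot lose when a dog is left out.

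**Figure D2:**
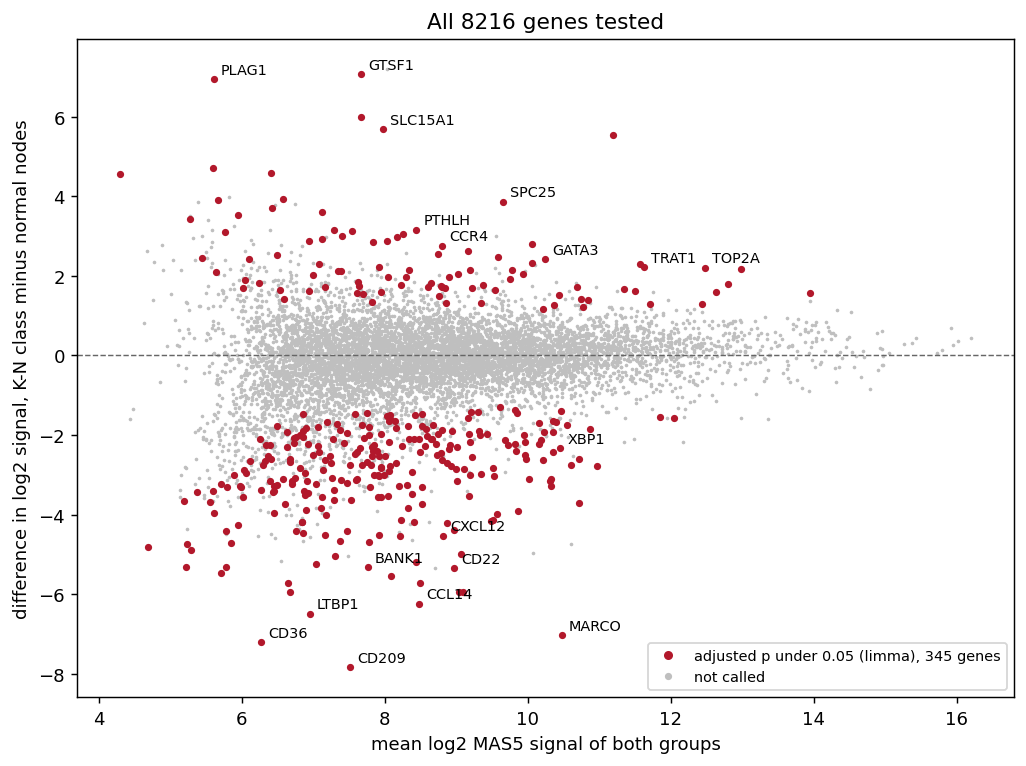
Difference in log2 MAS5 signal between the K-N class and normal nodes (y axis) against the mean log2 signal of both groups (x axis) for the 8216 genes tested, with the 345 genes at an adjusted p under 0.05 in red. Falls are more numerous than rises, and the size of a difference that includes signals under the limit of detection is uncertain.

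The largest rises and falls were named only where the groups did not overlap, so the lack of overlap in them is not a separate result. Several of the largest rises were in genes whose signal was under the limit of detection in normal nodes. GTSF1, a zinc finger protein of the piRNA pathway of germ cells, had log2 signals of 11.71 in NE45, 10.97 in RB07, 11.25 in FS25 and 10.90 in RB10, and 3.72 in 63, 3.39 in 2970, 5.97 in 3024l and 4.64 in 3024r. Every normal value was under the limit of detection and every lymphoma of the class was above it, so that GTSF1 was at least 4.87-fold higher (adjusted p = 0.00202). Without a floor its log2 difference was 7.07, beside 3.58 in the E-J class, whose values ranged from 4.70 to 11.30. Both differences rest on normal signals under the limit, so their size is uncertain. PLAG1, a zinc finger transcription factor of fetal growth and an oncogene of salivary adenoma, had values of 9.45 in NE45, 8.18 in RB07, 9.42 in FS25 and 9.28 in RB10, whereas the normals ranged from -0.17 to 4.23. It was at least 5.41-fold higher (adjusted p = 0.00079), with the lowest lymphoma, RB07, still above all normals. SLC15A1, the peptide transporter of the intestine, had values of 11.28 in NE45, 9.23 in RB07, 10.46 in FS25 and 12.29 in RB10, and 1.99 in 63, 6.81 in 2970, 6.11 in 3024l and 7.08 in 3024r. All lymphomas were above all normals, but the normals were spread widely, and the difference of 5.68 (standard error 1.23, adjusted p = 0.0433) was close to the threshold. With a floor of 100 under all signals it was 4.04. The E-J lymphomas, at 1.78 to 5.83, and the normal mean of 5.13 were under the limit of detection, so no E-J difference is given for SLC15A1. RIMBP2, a protein of the presynaptic release site, was at 8.16 to 9.10 in the class and 3.41 to 6.38 in the normals, at least 2.38-fold higher (adjusted p = 0.0121).

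The other large rises were PRXL2B, THEG, TMEM211 and the uncharacterized genes LOC491803 and LOC100855558. PRXL2B, a prostaglandin synthase, had a difference of 4.59 (adjusted p = 0.0253). Normal array 3024l, at 7.12, was over the limit of detection for PRXL2B and the other normal arrays were under it, so this size is uncertain. THEG, a testis protein, was at least 4.33-fold higher (adjusted p = 0.0436) and TMEM211 at least 2.5-fold higher (adjusted p = 0.00893). LOC491803 was at least 2.61-fold higher (adjusted p = 0.00347). LOC100855558 had a difference of 5.54 (adjusted p = 0.0449), beside 4.14 in the E-J class. For THEG, NE45 at 5.52 was itself under the limit of detection, as was 1 of its 2 probe sets on average in both groups. LOC100855558 ranged from 10.94 in RB10 to 15.59 in RB07. A gene of known hormonal effect was picked out after its values were seen. PTHLH encodes the parathyroid hormone-related protein, which raises blood calcium when tumors secrete it. Its log2 signals were 8.68 in NE45, 9.45 in RB07, 10.94 in FS25 and 11.02 in RB10, against 6.85 in 63, 7.06 in 2970, 7.21 in 3024l and 6.16 in 3024r. All 4 lymphomas were above all normal arrays, and PTHLH rose by 3.15 (standard error 0.59, adjusted p = 0.0297), while its difference in the E-J class was -1.83. The call was kept in 2 of the 7 fits without 1 dog, with differences of 2.82 to 3.60. CD52, a small glycoprotein of the lymphocyte surface that was also picked out after its values were seen, was at 10.89 to 11.41 in the class and 8.01 to 9.53 in the normals, and rose by 2.32 (standard error 0.37, adjusted p = 0.0204).

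**Figure D3:**
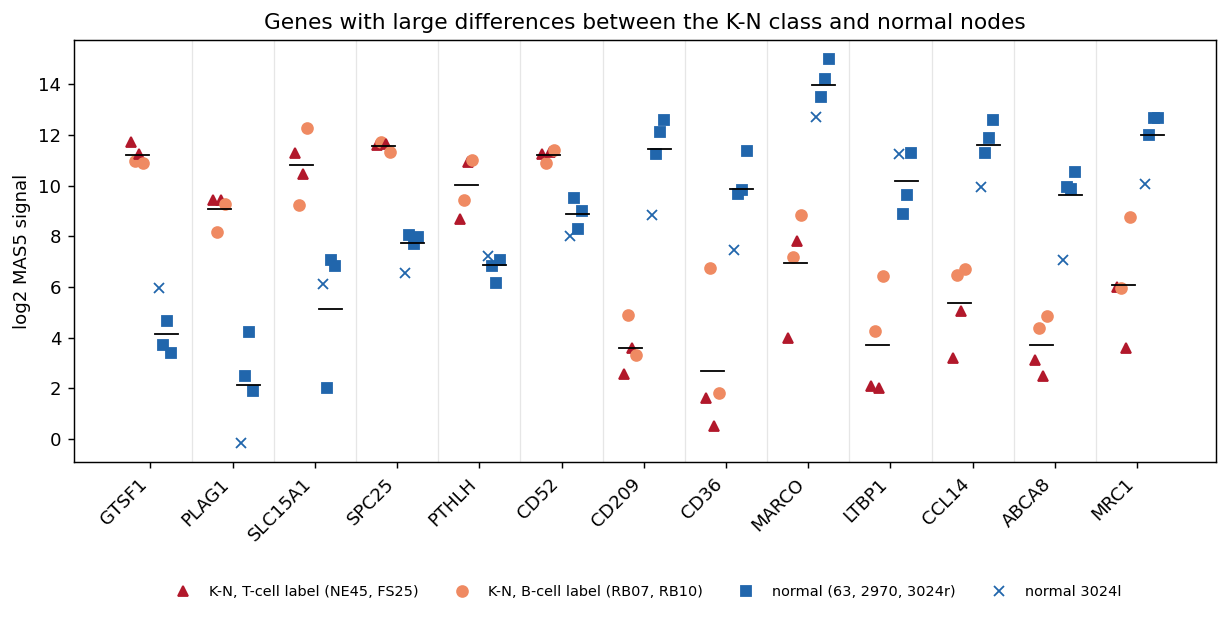
Log2 MAS5 signal per array of 13 genes with large differences, with the K-N class as triangles (T-cell label) and circles (B-cell label), the normal nodes as squares and a cross (3024l), and black bars for the group means with dog 3024 averaged. The 4 lymphomas lie above all normal nodes for GTSF1 to CD52 and below them for CD209 to MRC1. For all but PTHLH and CD52 this lack of overlap was a condition of naming the gene. Array 3024l is the lowest normal array for CD209, CD36, MARCO, CCL14, ABCA8 and MRC1.

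Genes of the T-cell receptor complex rose in part. Of 5 tested, 2 rose and 0 fell (1.14% and 3.06% of all genes), and 4 were higher without overlap (9.6% of all genes). The median difference was 1.49 beside -0.05 over all genes tested and -2.07 for the same genes in the E-J class. TRAT1, an adaptor that stabilizes the receptor complex, had log2 signals of 12.54 in NE45, 11.81 in RB07, 13.45 in FS25 and 13.13 in RB10, against 10.80 in 63, 10.90 in 2970, 9.55 in 3024l and 10.15 in 3024r. The lymphomas were all above the normals, and TRAT1 rose by 2.22 (standard error 0.47, adjusted p = 0.0404). With 3024r alone, 3 of the 5 rose. The calls of CD3D and TRAT1 were each kept in 1 of the 7 fits without 1 dog, that without RB07, with differences of 1.62 to 2.00 for CD3D and 1.88 to 2.52 for TRAT1.

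Of 23 T-cell surface and signalling genes, 1 rose and 1 fell (1.14% and 3.06% of all genes). The median was 0.56, and 19 had a positive difference. CD96, a receptor of T cells and NK cells, had values of 8.11 in NE45, 9.15 in RB07, 8.82 in FS25 and 9.51 in RB10, and 6.26 in 63, 6.86 in 2970, 2.90 in 3024l and 6.29 in 3024r. It rose by 2.99 (standard error 0.58, adjusted p = 0.0314), with 3024l as the lowest array. CD28, the costimulatory receptor that helper T cells use on first activation, was at 11.53 in NE45, 11.60 in RB07, 11.86 in FS25 and 9.98 in RB10 in the class and 7.45 to 9.38 in the normals. The groups did not overlap, and the difference of 2.28 (standard error 0.54, adjusted p = 0.0545) was just outside the threshold. CD4, the coreceptor of helper T cells, was at 9.81 in NE45, 10.46 in RB07, 9.98 in FS25 and 10.43 in RB10, and the normals at 9.64 in 63, 9.12 in 2970, 8.77 in 3024l and 9.80 in 3024r. The lymphomas were only slightly higher, with no overlap between dogs, and the difference of 0.82 (standard error 0.30, adjusted p = 0.162) did not pass the test. CD8B, a chain of the coreceptor of cytotoxic T cells, had values of 6.39 in NE45, 4.49 in RB07, 4.48 in FS25 and 6.30 in RB10, all under the limit of detection, against 8.86 in 63, 8.89 in 2970, 7.10 in 3024l and 7.59 in 3024r. CD8B fell and was at least 2.39-fold lower (adjusted p = 0.0471), a call that was lost in each of the 7 fits without 1 dog (adjusted p of 0.0526 to 0.18). CD8A, the other chain, was at 4.37 to 6.74 in the class and 6.59 to 7.36 in the normals, a difference of -1.11 (adjusted p = 0.31). With 3024r alone, 3 genes of this list rose and 1 fell, whereas with 3024l alone, without FS25 or without any 1 of the normal dogs 0 rose and 0 fell.

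Among 12 T-lineage transcription factors tested, 2 rose and 0 fell (1.14% and 3.06% of all genes). The median was 0.82, and -2.50 in the E-J class. Of the 12, 7 had a positive difference, and the lowest difference was -2.92. At an unadjusted p under 0.05 in limma 6 were higher and 2 lower (708 and 1074 over all genes). FOXP3, also on the list, did not reach the limit of detection in enough dogs. It was at 2.27 to 6.34 in the class and 6.57 to 8.03 in the normals. GATA3, which directs T-cell development and the type 2 helper program, had log2 signals of 11.90 in NE45, 11.09 in RB07, 11.09 in FS25 and 11.70 in RB10, against 9.69 in 63, 9.40 in 2970, 7.98 in 3024l and 7.98 in 3024r. All lymphomas were above all normals and GATA3 rose by 2.42 (standard error 0.47, adjusted p = 0.0312), a 5.36-fold difference. IKZF2, which encodes Helios, a factor of regulatory and other T cells, was tight in both groups, at 9.01 in NE45, 8.99 in RB07, 8.91 in FS25 and 9.21 in RB10 in the class and 6.90 to 7.26 in the normals, and rose by 1.96 (standard error 0.25, adjusted p = 0.0114). SATB1, a chromatin organizer of thymocytes, was higher without overlap at 9.67 to 11.52 against 7.18 to 9.40 (difference 2.08, adjusted p = 0.0804). The GATA3 call was kept in 1 of the 7 fits without 1 dog and that of IKZF2 in 5.

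Receptors that direct lymphocytes to tissues held 3 rises among 13 genes, and 0 falls (1.14% and 3.06% of all genes). The median was 0.21, and -0.11 with 3024r alone, beside -0.77 in the E-J class. Of the 13, 7 had a positive difference, and the lowest difference was -2.67. At an unadjusted p under 0.05 in limma 4 were higher and 3 lower (708 and 1074 over all genes). CCR4, the chemokine receptor of skin-homing, type 2 helper and regulatory T cells, had values of 10.34 in NE45, 10.26 in RB07, 9.21 in FS25 and 10.91 in RB10, and 7.86 in 63, 8.11 in 2970, 5.39 in 3024l and 7.21 in 3024r. It rose by 2.76 (standard error 0.55, adjusted p = 0.0333), with all lymphomas above all normals. ITGA4 and ITGB7, which pair as the integrin of gut-homing lymphocytes, were at 13.11 to 13.88 and 12.04 to 12.52 in the class and at 11.47 to 12.15 and 10.13 to 10.98 in the normals. They rose by 1.59 (standard error 0.31, adjusted p = 0.0314) and 1.62 (standard error 0.29, adjusted p = 0.0255). In the E-J class the differences were -1.53 for CCR4, -1.71 for ITGB7 and 0.82 for ITGA4. The E-J mean of CCR4, 5.89, was under the limit of detection, so the size for CCR4 is uncertain. The calls of CCR4, ITGA4 and ITGB7 were each kept in 2 of the 7 fits without 1 dog, and in 0 of the 3 without a normal dog.

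Genes of immature T cells held no rise. Of 20 thymocyte and precursor genes named on the array, 14 did not reach the limit of detection in enough dogs, RAG1, RAG2 and DNTT among them, which act in the rearrangement of receptor genes. Of the 6 tested, 0 rose and 1 fell (3.06% of all genes), LMO2, a transcriptional partner of precursor and germinal-centre B cells. LMO2 was at 8.45 to 10.24 in the class and 11.87 to 12.38 in the normals (difference -2.59, adjusted p = 0.0298). Of 10 cytotoxic and NK-cell genes, 0 rose and 1 fell (3.06% of all genes), FCER1G, a signalling chain of NK and myeloid cells (difference -2.19, adjusted p = 0.0204). KLRD1, a receptor subunit of NK cells, was at 1.74 to 7.04 in the class and 7.77 to 9.10 in the normals (difference -4.01, adjusted p = 0.0927). Of 15 checkpoint and costimulation receptors 0 rose and 2 fell (3.06% of all genes), and with 3024r alone 3 fell. The 2 were CD86, a ligand of CD28 on antigen-presenting cells (difference -1.94, adjusted p = 0.0311), and CD200, an inhibitory ligand (at least 3.39-fold lower, adjusted p = 0.0423).

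B-cell genes were lower in the class as a list. Of 12 pan-B-cell markers tested, 0 rose and 4 fell, all 12 had a negative difference, 8 did not overlap, and over all genes 3.06% fell and 13% were lower without overlap. The median was -3.43, beside 0.83 in the E-J class. CD22, an inhibitory coreceptor of B cells, had log2 signals of 6.89 in NE45, 5.09 in RB07, 4.29 in FS25 and 8.91 in RB10, against 12.06 in 63, 11.29 in 2970, 11.26 in 3024l and 11.86 in 3024r. Every lymphoma was below every normal, with RB10 the nearest, and CD22 fell by 5.34 (standard error 1.00, adjusted p = 0.0296). BANK1, a B-cell scaffold protein, was at 6.20 in NE45, 3.51 in RB07, 2.95 in FS25 and 7.73 in RB10, and the normals lay within 10.16 to 10.68. It fell by 5.32 (standard error 1.09, adjusted p = 0.0357). EBF1, a factor that sets B-cell identity, was under the limit of detection in all 4 lymphomas at 3.44 to 6.01 and at 7.99 to 8.40 in the normals, at least 2.16-fold lower (adjusted p = 0.0211). POU2AF1, a B-cell coactivator of octamer factors, was the remaining call, at 3.84 to 6.82 against 8.41 to 10.81 (difference -3.63, adjusted p = 0.0368). With the genes tested held fixed, 0 of the list passed the test without any 1 of the normal dogs, and 2 without NE45.

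BTK, PLCG2 and LYN, signalling genes that B cells share with myeloid cells, were picked out after their values were seen. BTK, the kinase below the B-cell receptor, had values of 7.26 in NE45, 7.52 in RB07, 7.36 in FS25 and 8.75 in RB10, against 9.87 to 10.34 in the normals, and fell by 2.34 (standard error 0.41, adjusted p = 0.0252). PLCG2, the phospholipase it activates, was at 6.52 to 8.66 in the class and 10.56 to 11.13 in the normals, and fell by 3.0 (standard error 0.48, adjusted p = 0.0204). LYN, a kinase of the same pathway, was at 9.57 to 9.98 against 10.50 to 11.56 and fell by 1.40 (standard error 0.26, adjusted p = 0.0291). In the E-J class the differences of BTK, PLCG2 and LYN were 1.66, 0.81 and 0.80.

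Germinal-centre genes held 0 rises and 2 falls among 8 tested (3.06% of all genes fell). Of the 8, 4 had a positive difference, and the median was -0.79, beside -1.17 in the E-J class. MME, the CD10 peptidase of germinal-centre B cells and stroma, was at 5.76 in NE45, 5.92 in RB07, 5.70 in FS25 and 7.26 in RB10, against 10.73 in 63, 10.57 in 2970, 8.79 in 3024l and 10.32 in 3024r, and fell by 4.13 (standard error 0.48, adjusted p = 0.00893). Its value in RB10 was apart from the other lymphomas but still under every normal, and the other fall was LMO2. Of 9 plasma-cell genes 0 rose and 3 fell (3.06% of all genes), with a median of -1.93, beside -0.76 in the E-J class. XBP1, the factor of the secretory program, had values of 9.57 in NE45, 8.94 in RB07, 9.18 in FS25 and 9.46 in RB10, against 11.31 in 63, 11.81 in 2970, 11.14 in 3024l and 12.36 in 3024r, without overlap, and fell by 2.33 (standard error 0.29, adjusted p = 0.0114). PRDM1, which encodes Blimp-1, fell by 3.53 (standard error 0.56, adjusted p = 0.0204), and FKBP11, a chaperone of secretory cells, fell by 2.51 (standard error 0.50, adjusted p = 0.0323). With 3024r alone 4 germinal-centre and 4 plasma-cell genes fell.

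Several of the largest falls were in macrophage genes. Of 23 myeloid and macrophage markers tested 0 rose and 14 fell, 19 did not overlap (over all genes 3.06% fell and 13% were lower without overlap), and the median was -3.05, beside -3.12 in the E-J class. The mean level of the list was 6.49 to 7.90 in the lymphomas and 9.48 to 11.31 in the normal arrays. CD209, a lectin of macrophages and dendritic cells, had log2 signals of 2.58 in NE45, 4.91 in RB07, 3.59 in FS25 and 3.30 in RB10, against 11.24 in 63, 12.57 in 2970, 8.83 in 3024l and 12.12 in 3024r. All lymphomas were under the limit of detection, and CD209 was at least 20.1-fold lower (adjusted p = 0.00347). MARCO, a scavenger receptor of sinus macrophages, was at 4.00 in NE45, 7.18 in RB07, 7.82 in FS25 and 8.85 in RB10, and 13.50 in 63, 15.00 in 2970, 12.71 in 3024l and 14.21 in 3024r. It fell by 7.02 (standard error 1.06, adjusted p = 0.0176), with no overlap. MRC1, the mannose receptor, fell by 5.93 (standard error 1.05, adjusted p = 0.0252), from 10.08 to 12.68 in the normals to 3.57 to 8.76. In the E-J class the differences were -5.86 for MARCO and -4.94 for MRC1.

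CD36, a scavenger receptor for lipids, was at 1.63 in NE45, 6.73 in RB07, 0.50 in FS25 and 1.82 in RB10, against 9.65 in 63, 11.36 in 2970, 7.46 in 3024l and 9.81 in 3024r, and fell by 7.21 (standard error 1.42, adjusted p = 0.0321). Since 3 of the 4 lymphomas were under the limit of detection, this size is uncertain, and a floor of 100 under all signals left -3.22. RB07 at 6.73 was well above the other lymphomas, and the call was kept in 1 of the 7 fits without 1 dog, that without RB07. The other calls of the list were LYVE1, C1QA, C1QB, C1QC, STAB1, CD5L, MPEG1, MSR1, SPIC and CSF1R. The defining markers did not all fall. CD14, the receptor for bacterial lipopolysaccharide, was at 8.06 in NE45, 11.60 in RB07, 9.76 in FS25 and 8.08 in RB10, and 6.33 to 10.26 in the normals (difference 0.23, adjusted p = 0.907), and CD68, a lysosomal protein of macrophages, at 5.43 to 7.57 and 6.12 to 10.46 (difference -0.90, adjusted p = 0.579). CD163, a hemoglobin receptor, was at 4.37 to 6.79 and 6.19 to 8.79 (difference -2.41, adjusted p = 0.0903). With 3024l, which had the lowest mean level of the list among the normal arrays, in place of the mean of its dog, 8 of the list fell, and with 3024r 19 did. What part the 3′ bias of 3024l had in this was not tested. With the genes tested held fixed, 4, 2 and 2 of the list fell without normal dog 3024, 63 and 2970.

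Of 7 neutrophil and mast-cell genes 0 rose and 1 fell (3.06% of all genes), with a median of -2.61. This was FCER1A, the chain of the high-affinity IgE receptor that binds the antibody, at 3.61 to 6.07 in the class and 7.27 to 8.0 in the normals, at least 1.65-fold lower (adjusted p = 0.0325).

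Complement genes, which macrophages and stroma of the node transcribe, held 9 falls and 0 rises among 18 (3.06% of all genes fell). The median was -2.60, beside -2.28 in the E-J class. C1QA, a chain of the first component, was at 7.82 to 9.20 in the class and 10.76 to 12.57 in the normals and fell by 3.16 (standard error 0.44, adjusted p = 0.0134). C1QB fell by 3.10 (standard error 0.46, adjusted p = 0.0166), and C1R, a protease of the same component, fell by 2.84 (standard error 0.51, adjusted p = 0.0264). The mean level of the list was 6.80 to 8.38 in the lymphomas and 9.07 to 10.11 in the normals. With the genes tested held fixed, 2, 0 and 0 fell without normal dog 3024, 63 and 2970, 4 without NE45, 5 without FS25 or RB10 and 13 without RB07.

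Some vessel and stromal genes fell. Of 16 endothelial markers 0 rose and 5 fell (3.06% of all genes), 11 did not overlap (13% of all genes) and all were negative. The median was -2.10, beside -1.80 in the E-J class. PLVAP, a protein of vessel fenestrae, had values of 5.56 in NE45, 7.36 in RB07, 4.96 in FS25 and 5.92 in RB10, against 9.82 in 63, 10.84 in 2970, 10.55 in 3024l and 11.03 in 3024r, and fell by 4.53 (standard error 0.58, adjusted p = 0.0114). LYVE1, a hyaluronan receptor of lymphatic vessels and some macrophages, was at 6.36 to 7.13 in the class and 9.31 to 12.03 in the normals, and fell by 4.39 (standard error 0.41, adjusted p = 0.00347). PECAM1, a junction protein of endothelium, fell by 2.75 (standard error 0.36, adjusted p = 0.0121), and CCL14, a chemokine, fell by 6.24 (standard error 0.87, adjusted p = 0.0134). In the E-J class the differences were -1.79 for PECAM1 and -6.09 for CCL14. The E-J mean of CCL14, 5.51, was under the limit of detection, so the size for CCL14 is uncertain. KDR, the main receptor for vascular growth factor, was at 9.22 in NE45, 10.14 in RB07, 11.09 in FS25 and 7.92 in RB10, against 9.29 to 11.99 (difference -1.31, adjusted p = 0.377), and RB07 and FS25 lay within the normal range. With the genes tested held fixed, 3, 3 and 1 of the list fell without normal dog 3024, 63 and 2970, and 8 without RB07.

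Of 27 stromal and matrix genes 0 rose and 5 fell (3.06% of all genes), and 16 did not overlap (13% of all genes). The median was -1.94, beside -2.23 in the E-J class. CXCL12, the chemokine that holds lymphocytes in the node, was at 6.26 in NE45, 6.82 in RB07, 5.69 in FS25 and 7.43 in RB10, against 11.27 in 63, 11.27 in 2970, 10.29 in 3024l and 11.13 in 3024r. It fell by 4.53 (standard error 0.44, adjusted p = 0.00398). CCL21, the T-zone chemokine of the stroma, was at 7.69 in NE45, 9.05 in RB07, 8.81 in FS25 and 9.89 in RB10, and 13.65 in 63, 11.78 in 2970, 11.70 in 3024l and 12.79 in 3024r, and fell by 3.70 (standard error 0.61, adjusted p = 0.022). PDGFRA, a growth factor receptor of fibroblasts, fell by 2.52 (standard error 0.47, adjusted p = 0.0291), and TNC and MYH11 also fell. COL1A1, a chain of fibrillar collagen, was at 8.99 in NE45, 11.88 in RB07, 9.47 in FS25 and 10.12 in RB10, against 10.34 to 11.85 (difference -0.78, adjusted p = 0.558), and RB07 was as high as the highest normal array. With 3024r alone 10 stromal genes fell, and without RB07 14, while without normal dog 3024, 63 and 2970 the count was 3, 1 and 1 and without NE45 it was 3. Among 6 genes of follicular dendritic cells, which hold antigen for B cells, 0 were called in limma. At an unadjusted p under 0.05 in limma 4 were lower, and 4 were lower without overlap (13% of all genes). CXCL13, the chemokine that draws B cells into follicles, was at 7.68 in NE45, 8.47 in RB07, 4.33 in FS25 and 9.88 in RB10. The normals were at 11.84 to 13.16 (difference -4.97, adjusted p = 0.0537). With 3024r alone 3 of these 6 genes fell. Of 13 chemokines 4 fell (3.06% of all genes), CXCL12, CCL14, CCL21 and CXCL16, with a median of -2.18, beside -2.27 in the E-J class. Of 11 dendritic-cell markers 3 fell (3.06% of all genes), IRF8, FSCN1 and TCF4, with a median of -1.47, beside -1.54 in the E-J class. With 3024r alone the chemokine count was 6 and that of dendritic-cell markers 5.

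Other falls named by their size were LTBP1, which binds latent TGF-beta in the matrix and was at 2.02 to 6.44 in the class (at least 11.7-fold lower, adjusted p = 0.0235), ABCA8, a lipid transporter (at least 8.03-fold lower, adjusted p = 0.00893), HOXA5, a homeobox factor (at least 7.3-fold lower, adjusted p = 0.0321), IL13RA2, a decoy receptor for interleukin 13 (difference -5.72, adjusted p = 0.0323), and the uncharacterized LOC484897 (difference -5.94, adjusted p = 0.00893). The lack of overlap between the groups in these 5 genes was a condition of naming them. Without a floor the K-N differences were -6.49 for LTBP1, -5.94 for ABCA8 and -5.72 for HOXA5. The E-J class was lower too, with differences without a floor of -2.76 for LTBP1, -5.16 for ABCA8, -3.08 for HOXA5, -5.61 for IL13RA2 and -5.68 for LOC484897. The E-J mean of each of these genes but LTBP1 was under the limit of detection, so the sizes are uncertain.

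**Figure D4:**
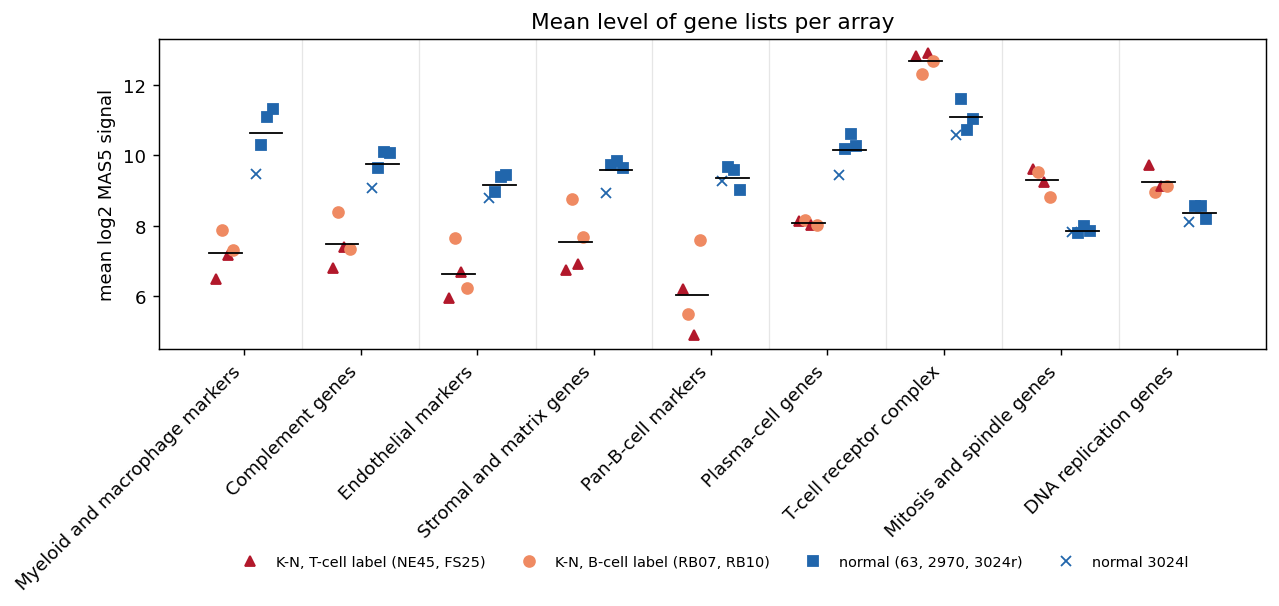
Mean log2 MAS5 signal over the tested genes of 9 lists in each array, with the K-N class as triangles (T-cell label) and circles (B-cell label), the normal nodes as squares and a cross (3024l), and black bars for group means with dog 3024 averaged. Macrophage, complement, vessel, stromal, B-cell and plasma-cell lists are lower and mitosis and T-cell receptor lists higher in all 4 lymphomas, and RB07 is the highest lymphoma for the macrophage, complement, endothelial and stromal lists.

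Mitosis genes were higher as a list. Of 37 mitosis and spindle genes tested, 8 rose (1.14% of all genes) and 0 fell, and all 37 had a positive difference. The groups did not overlap for 28 (9.6% of all genes did so in this direction). The median was 1.39, beside 1.04 in the E-J class. The mean level of the list was 8.84 to 9.62 in the lymphomas and 7.80 to 8.01 in the normal arrays. SPC25, a kinetochore protein that ties chromosomes to the spindle, had log2 signals of 11.60 in NE45, 11.74 in RB07, 11.63 in FS25 and 11.34 in RB10, against 8.07 in 63, 7.98 in 2970, 6.54 in 3024l and 7.68 in 3024r. The lymphomas lay close together and far above the normals, and SPC25 rose by 3.86 (standard error 0.32, adjusted p = 0.00347), a 14.5-fold difference. TOP2A, the topoisomerase that untangles chromosomes, was at 13.26 to 13.76 against 11.01 to 12.10 and rose by 2.21 (standard error 0.31, adjusted p = 0.0142). TPX2, a spindle assembly factor, was at 10.52 to 11.07 against 8.48 to 9.12 and rose by 2.13 (standard error 0.29, adjusted p = 0.013). CENPF, NUF2, TTK, FOXM1 and AURKB were the other calls, and with 3024r alone 13 of the list rose. With the genes tested held fixed, 3, 1 and 1 rose without normal dog 3024, 63 and 2970, 5 without NE45 and 5 without FS25. B-cell, macrophage, vessel and stromal lists were lower in the same 4 lymphomas in which T-cell receptor and mitosis genes were higher, and what part this had in the rises was not tested.

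DNA replication genes were higher on the whole without single calls. Of 37 tested, 0 rose and 0 fell in limma, 34 had a positive difference, and 16 were higher and 0 lower at an unadjusted p under 0.05. The groups did not overlap for 13 (9.6% of all genes). The median was 0.80, beside 0.92 in the E-J class. MCM5, a subunit of the replicative helicase, was at 9.54 to 11.17 against 8.18 to 8.94 (difference 1.86, adjusted p = 0.054), and MCM4, another subunit, at 9.90 to 11.11 against 7.98 to 9.31 (difference 1.53, adjusted p = 0.0553). Among 21 cell-cycle regulators 1 rose, beside 1.14% of all genes. This was CDKN2C, an inhibitor of the CDK4 and CDK6 kinases, at 10.21 in NE45, 10.20 in RB07, 9.71 in FS25 and 9.43 in RB10, against 8.19 in 63, 7.67 in 2970, 7.40 in 3024l and 8.40 in 3024r. It rose by 1.97 (standard error 0.31, adjusted p = 0.0204) in the class, and its difference in the E-J class was -1.29. KIT, the stem cell factor receptor and a drug target in dogs, was at 3.75 in NE45, 8.47 in RB07, 7.25 in FS25 and 5.31 in RB10, and 6.13 to 6.95 in the normals (difference -0.48, standard error 1.02), with RB07 and FS25 above and NE45 and RB10 below the normal range. MKI67 was not analysed here.

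Growth and metabolic lists held no calls in limma. Of 29 MYC targets and nucleolar genes, 1 was higher and 3 were lower at an unadjusted p under 0.05, with a median of 0.08. Of 16 glycolysis enzymes 4 were higher and 0 lower at that level, with a median of 0.53, and of 27 proteasome genes 4 were higher and 1 lower, with a median of 0.25. Calls were also 0 among 9 genes of the BCL2 family of survival regulators (0 higher and 1 lower at an unadjusted p under 0.05, median -0.14), 10 immediate early genes (0 higher and 3 lower, median -0.04) and 20 interleukins and their receptors (2 higher and 7 lower, median -1.37). Over all genes tested, 708 were higher and 1074 lower at that level. Of 21 PI3K pathway genes, 1 rose and 1 fell (1.14% and 3.06% of all genes). INPP4B, a phosphatase of the lipid products of PI3K, was at 10.62 in NE45, 10.32 in RB07, 10.39 in FS25 and 9.74 in RB10, against 8.81 in 63, 8.73 in 2970, 8.15 in 3024l and 7.69 in 3024r, and rose by 1.78 (standard error 0.35, adjusted p = 0.0321), without overlap. PIK3AP1, an adaptor of PI3K in B cells and macrophages, was at 7.0 to 8.12 against 9.74 to 10.86 and fell by 2.78 (standard error 0.36, adjusted p = 0.0114). The E-J differences were -2.64 for INPP4B and 0.40 for PIK3AP1. The E-J values of INPP4B, at 5.37 to 6.24, were under the limit of detection, so the size for INPP4B is uncertain. Of 17 NF-kB pathway genes 0 rose and 1 fell (3.06% of all genes), NFKBIA, the inhibitor that NF-kB itself induces. NFKBIA was at 11.07 to 11.58 in the class and 12.72 to 12.95 in the normals (difference -1.57, adjusted p = 0.0229).

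Immune response lists held single falls, beside 3.06% of all genes that fell. Of 26 interferon-stimulated genes 0 rose and 1 fell, HERC5, a ligase that attaches ISG15, at 6.38 in NE45, 7.12 in RB07, 6.86 in FS25 and 6.89 in RB10, against 8.11 in 63, 8.63 in 2970, 9.12 in 3024l and 8.77 in 3024r (difference -1.75, adjusted p = 0.0288), a call kept in 1 of the 7 fits without 1 dog. The median of the list was -0.54 in the class and 1.20 in the E-J class. Of 18 genes of antigen presentation 0 rose and 1 fell, DLA-DMA, which loads peptides on class II molecules, at 8.92 to 10.07 in the class and 11.29 to 11.74 in the normals (difference -1.74, adjusted p = 0.0323), and with 3024r alone 4 fell. DLA88, the main class I gene of dogs, had 2 probe sets that disagreed, with means of 3.81 in the class and 12.27 in the normals for 1 and of 12.66 and 13.68 for the other. B2M, the light chain of class I molecules, was at 13.58 to 14.88 and 14.16 to 15.35 (difference -0.54, adjusted p = 0.49).

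**Figure D5:**
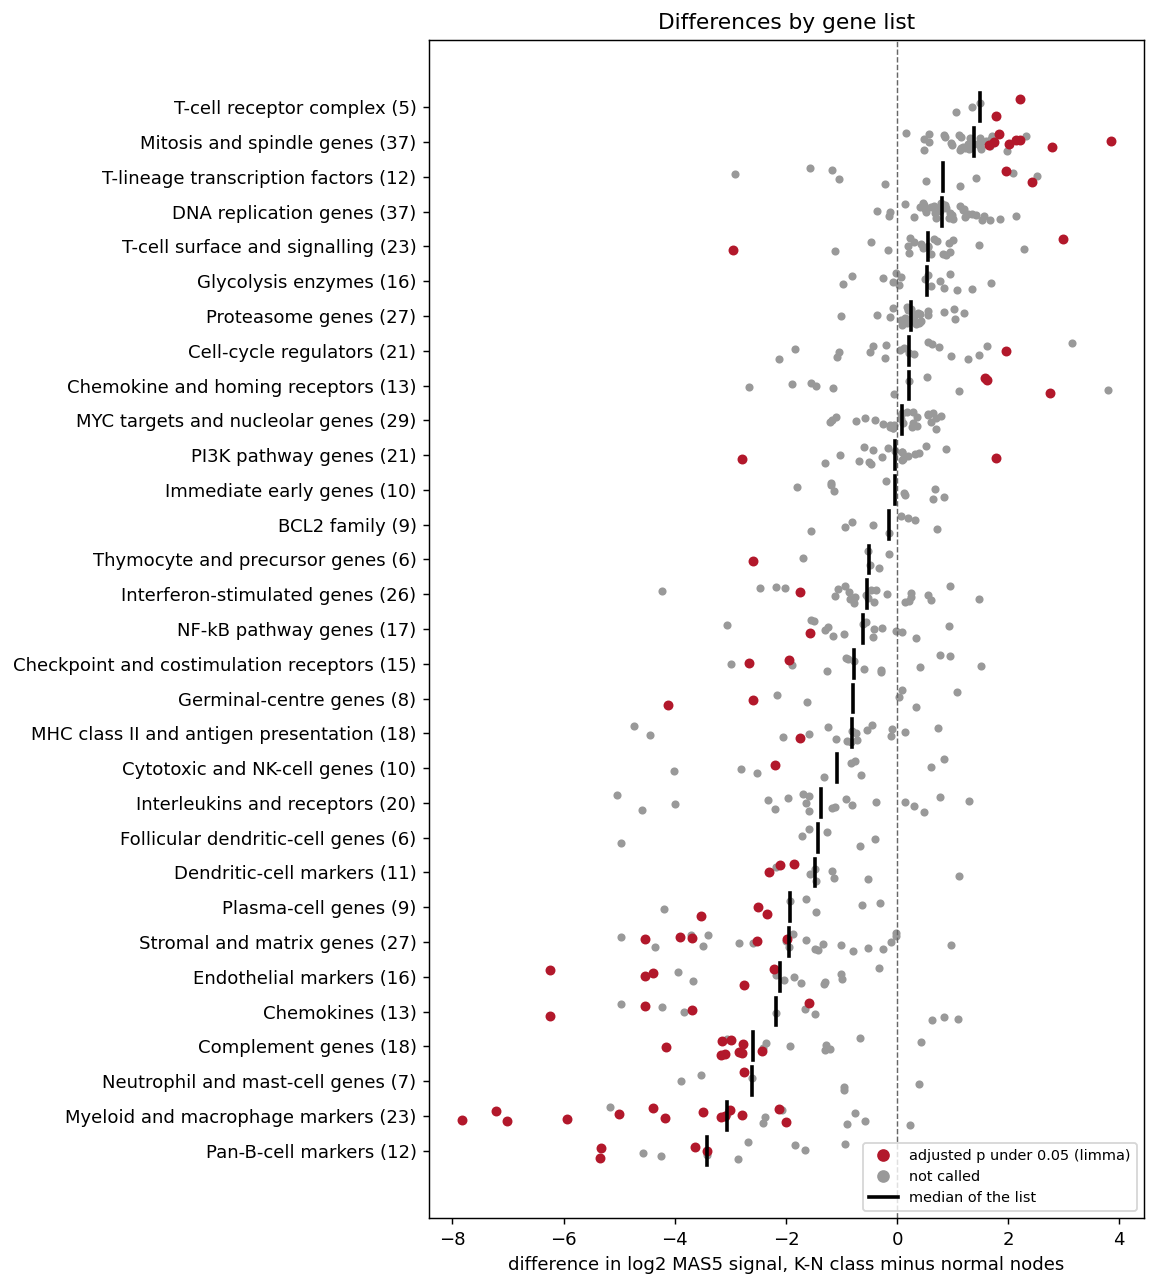
Difference in log2 MAS5 signal between the K-N class and normal nodes (x axis) for every tested gene of the lists with at least 5 genes (number tested in brackets), with genes at an adjusted p under 0.05 in red and the median of each list as a black bar. The T-cell receptor, mitosis and T-lineage factor lists have the highest medians (1.49, 1.39 and 0.82) and the pan-B-cell and macrophage lists the lowest (-3.43 and -3.05).

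The labels T-cell and B-cell divide the class into NE45 and FS25 against RB07 and RB10, and this division was not used to draw it. In a fit with the normal dogs, 0 of 8216 genes (0%) passed limma's adjusted p of 0.05 between the pairs, 592 had an unadjusted p under 0.05, and the smallest adjusted p was 0.0866. With 2 dogs against 2 this says little about genes that differ by small amounts. CD3D differed by 0.11 (standard error 0.49, adjusted p = 0.986) between T-labelled and B-labelled dogs, GATA3 by 0.11 (standard error 0.65, adjusted p = 0.989) and CD4 by -0.55 (standard error 0.36, adjusted p = 0.834). CD79A was lower in both T-labelled dogs (difference -2.88, standard error 1.46, adjusted p = 0.75), a gap made mostly by FS25 at 2.55 against 7.87 in NE45. The pairs overlapped for MS4A1 (difference 2.04, adjusted p = 0.907). Its values in FS25 and RB07 were both under the limit of detection and have no reliable order, so the size of this difference is uncertain.

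The smallest p between the labels belonged to ZNF804A, a zinc finger protein, at 1.08 in NE45 and 2.33 in FS25 against 6.45 in RB07 and 6.82 in RB10 (adjusted p = 0.0866). The mean of each pair was under the limit of detection, so no size is given. MFHAS1 and ZC3H3 had the same adjusted p, again with both T-labelled dogs under the limit. MAP1B, a microtubule protein of neurons, was higher in the T-labelled dogs at 9.21 and 9.16 against 5.72 and 5.06 (adjusted p = 0.17), where the latter were under the limit. CPA3, a mast-cell protease, was at 1.24 and 1.05 in the T-labelled dogs and at 7.09 and 5.49 in the B-labelled dogs (adjusted p = 0.17), and the mean of each pair was under the limit. Without RB10 20 genes passed the test, without NE45 2, and without RB07 or FS25 0.

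Probe sets with no gene symbol were tested apart from the genes. Of 5982 that reached the limit of detection in at least 3 dogs, 255 (4.26%) were called, of which 95 rose and 160 fell.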

How the data were processed

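The authors amplified RNA from fine needle aspirates with WT-Ovation Pico, hybridised it to GeneChip Canine Genome V2.0 Arrays and turned probe intensities into 1 value per probe set with the MAS5 algorithm in the Affymetrix console software, kept linear and brought to a trimmed mean intensity of 500 on every array. The intensities were used as deposited in the value table of the series, with no further scaling between arrays, and were taken to log2. Scaling each array to 1 mean hides any change in total RNA per cell. Labels call the normals node tissue, whereas the methods describe aspirates. The number of arrays limits the precision, and arrays hold no read depth.

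Of 43035 probe sets, 29254 carried exactly 1 symbol in the array's gene table (annotation of 2016) and gave 15115 genes as means of log2 values. 13332 probe sets had no symbol and 439 had several. No detection calls were used. A signal of 100 served as the limit of detection, and where every value of 1 group was under it a fold is given as a lower bound, the lowest over the gene's probe sets that reached it in the brighter group. Genes at or above 100 in 3 or more of the 7 dogs entered limma (version 3.58.1, R 4.3.3), with lmFit and eBayes on 4 lymphomas against 3 normal dogs, with Benjamini-Hochberg adjustment over all 8216 genes and a threshold of 0.05. Groups were said not to overlap over dogs, with 3024l and 3024r averaged. Labels within the class were compared in a fit of 3 groups (NE45 and FS25, RB07 and RB10, normal dogs). Nothing pairs lymphomas with normals.

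The rule for naming genes took the 10 largest rises and falls past the threshold without overlap whose brighter mean was at least 100, up to 3 members of each of 32 gene lists with the smallest p, the 5 smallest p between labels, and CD3E, CD3D, CD3G, CD79A, CD79B, MS4A1, PAX5, CD4, CD8A, KIT and MKI67. PTHLH, CD52, BTK, PLCG2, LYN and POU2AF1 were added after their values were seen. 1 further gene of the rule is not reported here. Markers of cell types are given as checks, and further calls of a list by name only. The class, its members and the lists were chosen with earlier results of these data known. Alternatives changed the scaling, filter, pseudocount, floor, gene summary, test and arrays 1 at a time. Data were simulated for 8216 genes with the same spread per gene in both groups. A log2 change of 2 was found for 106 of 200 changed genes, with 4 false calls among the unchanged genes, and a change of 1 for 0. The spreads of the 2 groups differed in the real data, so these counts may not hold for them. Plots used matplotlib 3.10.9 and Python 3.11.15. Sequences of probes or promoters were not used here.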

Additional observations from a re-analysis of the deposited data

Results flagged for a closer look

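Among 124 named genes, the 4 lymphomas were screened for 1 value far from the other 3, and 3 genes met the limit of Dixon's test. Chance alone passes about 1 in 20 such groups. PLAG1 was at 8.18 in RB07, under the 9.28 to 9.45 of the other lymphomas and still above all normal arrays. MME was at 7.26 in RB10, above the 5.70 to 5.92 of the others. CD79A was at 2.55 in FS25, under the 7.87 to 8.11 of the others, and was the only value of CD79A in the class below the limit of detection.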

How the results depend on the processing

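The 345 calls became 573 with 3024r alone for its dog and 162 with 3024l alone, 42 when dim genes were kept and 518 with a filter at 200. They became 921 with 50 added to each signal, 970 with a floor of 100 under all signals, 593 when probe sets were averaged before the logarithm and 559 with all 10 lymphomas in the fit. With the T-labelled dogs alone 544 were called, with the B-labelled dogs alone 160, and with the methods' t-test (Welch) 0. Leaving out 1 dog in turn gave 13 to 651 calls, and 26 to 620 when the genes tested were held fixed, an alternative chosen after seeing the data, as was leaving out dogs between labels. The highest of these counts came without RB07 (651 and 620) and the lowest without a normal dog (13, 31 and 15, or 78, 52 and 26, for 3024, 63 and 2970), while with genes held fixed 221 were called without NE45 and 215 without FS25. Between the labels the 0 calls became 2 without NE45 and 20 without RB10, a range of 0 to 20. Of the 20 genes with the largest changes, all that could be tested kept their direction in every alternative. They were named only where the groups did not overlap, so fits that only left out dogs could not turn their direction. Other scalings moved the median of all genes from -0.05 to 0.02 (quantile, 165 rises and 291 falls) and 0.03 (median-centred, 125 and 279), and 3024r alone to -0.15. KIT turned from -0.48 to 0.41 with the floor of 100, 0.22 with the B-labelled dogs alone and 0.33 without NE45, BCL2L13 from -0.94 to 0.24 with its brightest probe set, and ZC3H3 from -1.86 to 0.094 with the floor of 100 and 0.37 with the B-labelled dogs alone. The cause of these turns was not tested. Among 63 named genes with several bright probe sets, those of BCL2L13 and MAP1B differed in sign. A random block for the nodes of dog 3024 could not be fitted, since 1 dog alone had a repeated array. No paired analysis was possible because no label ties a lymphoma to a normal.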

Other observations

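The 4 lymphomas differed among themselves more than the normals, with a median SD per gene of 0.55 in the class and 0.38 in the normal dogs. Beside MS4A1, the genes that varied most in the class included genes of other tissues. CCN2, a matricellular growth factor of connective tissue, was at 5.60 in NE45, 12.09 in RB07, 8.56 in FS25 and 3.98 in RB10, against 8.09 to 9.24 in the normal arrays. ALDH1A1, which makes retinoic acid, was at 3.77 in NE45, 11.23 in RB07, 3.93 in FS25 and 6.38 in RB10, against 7.42 to 8.53. FABP4, a fatty acid carrier of fat cells and macrophages, was at 1.53 in NE45, 9.40 in RB07, 5.58 in FS25 and 7.65 in RB10, against 10.98 to 11.69. RB07 was the highest lymphoma for all 3 genes, which were chosen after their values were seen. ERP27, a chaperone of the endoplasmic reticulum, was at 1.87 in RB07 and 6.87 to 9.0 in the other lymphomas, against 6.28 to 7.35.

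ALAS2, the heme synthesis enzyme of red cell precursors and the single red cell gene tested, was at 6.48 to 9.21 in the class and 1.73 to 6.53 in the normals (all under the limit of detection), at least 2.51-fold higher, which did not pass the test (limma adjusted p = 0.0737). The neutrophil genes S100A8 and S100A9 were at 9.19 to 11.90 and 8.38 to 12.43 in the class, against 9.35 to 13.30 and 9.24 to 13.17 in the normals, so that both groups overlapped.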
